A study of Mus with 438 samples.

Results

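The genes described here had their highest level in cones at postnatal day 8 (P8). They were chosen from the measured values of control mouse cones. For each gene the mean over superior cones and the mean over inferior cones were averaged at each age. A gene was taken if this value reached 20 CPM (a gene's reads, scaled to a common library size) at P8, and if P8 + 1 CPM was at least 2-fold over the value + 1 CPM at every other control age. It also had to be over 1 CPM in at least 25% of the 48 P8 cells. In the expression table, which holds 10390 genes, this rule was met by 59, which is 0.568%. Since the rule used the levels at all 5 control ages, those levels and folds, and the shares of cells that follow from them, are given as a description and carry no test.

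The study isolated fluorescent cones from mouse retina with a Cre driver placed at the gene for thyroid hormone receptor beta 2, and compared them over postnatal age, between retinal zones and without the receptor. RNA was measured by full-length cDNA sequencing of single, individually picked cells of C57BL/6 mice. Control cones had the genotype Trb2Cre-het:Ai6, so they also carry 1 allele with Cre. They were collected from the superior and inferior retina at P2 (26 from superior and 30 from inferior retina), at P8 and P21 (24 from each zone at either age), at P60 (26 from superior, 21 from inferior) and, in another collection, at 2 months (53 from superior, 50 from inferior). Knockout cones, Trb2Cre-KO:Ai6, were collected at 2 months (50 superior and 48 inferior cells). The 29 rods came from 2-month-old tgNrl:gfp mice, in which the rod gene promoter Nrl drives the fluorescent protein. Further files list regions bound by biotin-tagged receptor in E18 retina (ThrbHAB:BirA, against BirA) and regions whose openness differed in purified P30 cones of Trb2Cre-KO:Sun1-gfp and Trb2Cre-het:Sun1-gfp mice.

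The labels name no animal, so a group of cells was treated as a single sample and single cells gave neither tests nor errors. P2, P8 and P21 were each 1 collection, so for P8 age and collection cannot be told apart. P60 and 2 months are nearly the same age in separate collections. A pair of P60 superior libraries had a Pearson r of 0.996 on log2(CPM + 1) and was counted as 1 cell; the rule took 60 genes when they were kept apart. Reads per cell recovered from the CPM values ran over all groups between 897893 and 32636811, with medians of 3062180 in superior and 2160240 in inferior P8 cells. All 13 measured cone identity markers, cone arrestin (Arr3), the cone transducin (Gnat2) and the cone opsin Opn1sw among them, were over 1 CPM in at least 25% of P8 cells.

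Cones and rods are sister photoreceptors that share most of the phototransduction machinery but use their own subunits for it. The rod transcription factor Nrl and its target Nr2e3 turn on rod genes and hold cone genes down, while thyroid hormone receptor beta 2 directs the M opsin program in cones. At P8 mouse photoreceptors are still growing outer segments and forming synapses, and the eyes have not opened.

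The 59 genes spanned P8 levels of 21.7 to 850.5 CPM with a median of 65.4 CPM. Their fold over the highest other age ran from 2.00 to 13.1 with a median of 2.53. It was over 4 in 9 genes, over 3 in 21 and under 2.5 in 29. The highest of the other ages was P2 for 23 genes, P21 for 13, P60 for 10 and the 2-month collection for 13. Thus the runner-up age was most often P2 but varied between genes. The median log2 ratio of P8 over P2 was 1.76 for the 59 genes and -0.19 for all genes. Over the 2-month collection it was 2.33 for the 59 genes and 0.24 for all genes. With DESeq2 size factors, which put the all-gene medians within 0.05 of 0, the members' medians were 1.91 over P2 and 2.04 over 2 months. That 59 of 59 genes remained higher at P8 than at every other age follows from the rule. It had asked for 2-fold, and these factors differed by less than that between control groups. Not all of the 59 still met the rule itself under these factors. The same rule with another age as the peak took 547 genes at P2, 35 at P21, 29 at P60 and 180 in the 2-month collection. By the rule these 180 were also at least 2-fold over P60, a separate collection of nearly the same age. The cause of that difference was not tested.

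**Figure D1:**
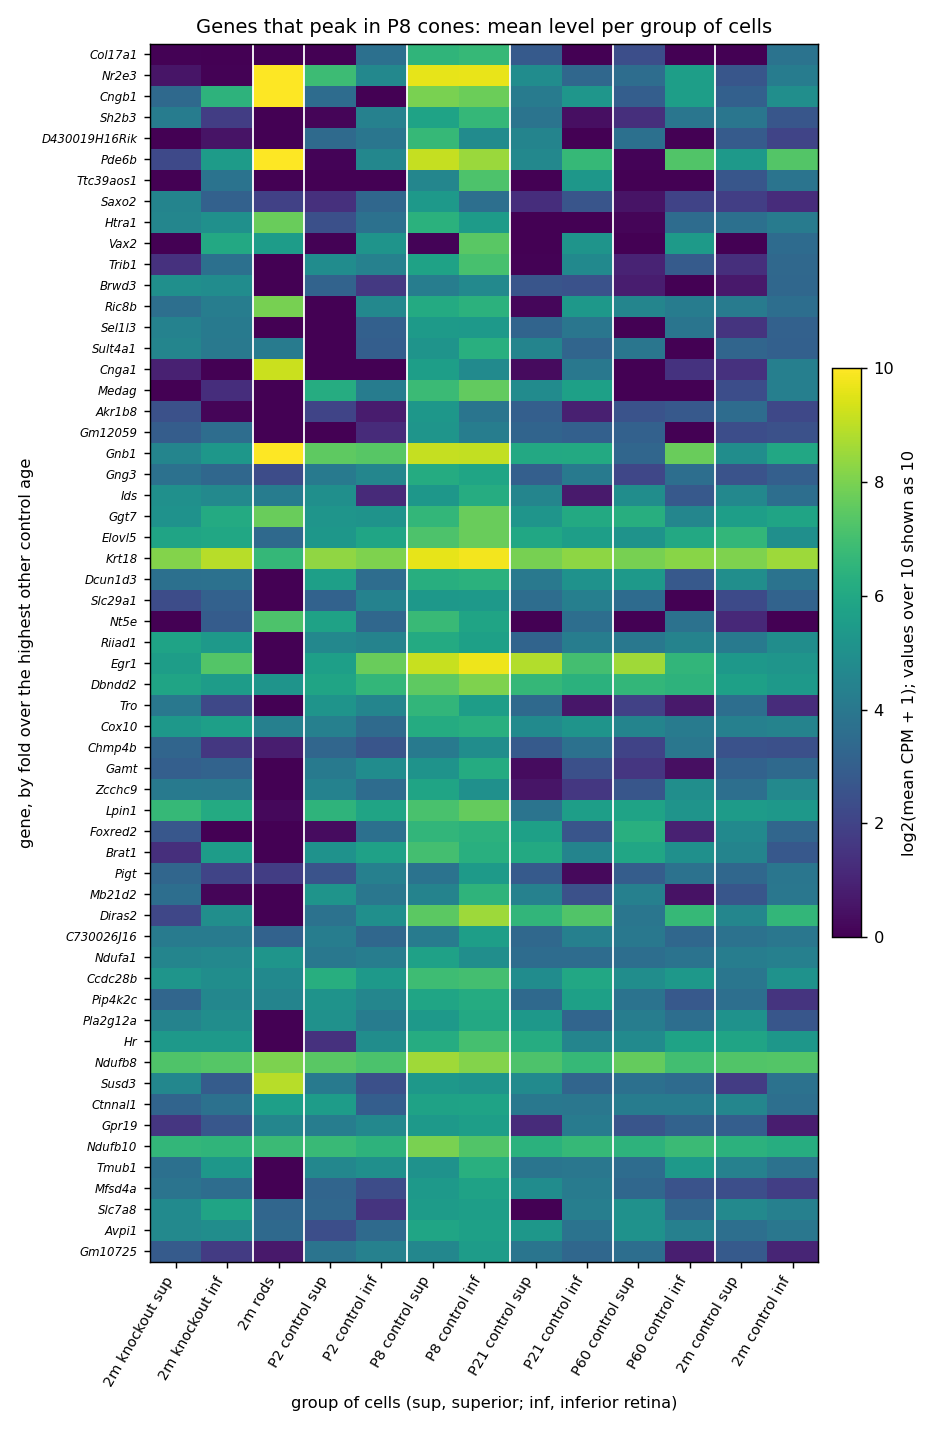
Heatmap of the mean level of the genes (rows, all but 1 of the 59, ordered by fold over the highest other control age) in the 13 groups of cells (columns); colour gives log2(mean CPM + 1), with values over 10 drawn as 10. The P8 control columns are brighter than the other control columns by choice of the genes, and rods are brightest for Nr2e3, Cngb1, Pde6b, Gnb1 and Cnga1 and dark for 28 genes under 1 CPM.

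The limit on the fold divided genes with nearly equal values. Just inside it were Gm10725 at 2.00, Avpi1 and Slc7a8 at 2.02 and Mfsd4a at 2.04. Just outside were Znhit1 at 1.995, B930095G15Rik at 1.99, Atp5g1 at 1.98 and Tubb3 at 1.98. Without the share of cells 87 genes met the level and the fold, so that condition left out 28. Membership depended on how cells and zones were averaged. Means of log2(CPM + 1) took 151 genes with 15 of the 59 among them, superior cones alone 108 genes with 28 of the 59 and inferior cones alone 132 genes with 42 of the 59.

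How widely the genes were seen among P8 cones differed greatly. Krt18 and Ndufb8 were over 1 CPM in all 48 P8 cells, and Ndufb10 and Riiad1 in 97.9% of them; 13 genes were over 1 CPM in more than 75% of the cells. At the other end 34 genes were seen in fewer than 50% of the cells, and 23 had a median of 0 CPM over the P8 cells. Brwd3 was seen in 25% of them and Slc7a8, Slc29a1 and Akr1b8 in 27.1%. A single cell held over 25% of the P8 sum in 7 genes. Most members were therefore seen in a minority of the P8 cones. The median share of cells over 1 CPM across the 59 genes was 17.9% at P2, 43.75% at P8, 16.7% at P21, 12.8% at P60 and 11.7% in the 2-month collection. With each cell thinned to 890000 reads, which left out no cell, the medians of cells with a read were 21.4%, 45.8%, 18.75%, 14.9% and 15.5% at the same 5 ages. The share was highest at P8 in 56 of 59 genes thinned and 55 unthinned, which follows in part from the rule. Counted per cell, a median of 15 members (7 to 23) were over 1 CPM in P2 cells, 30.5 (22 to 42) in P8 cells, 13 (8 to 25) in P21 cells, 13 (6 to 20) in P60 cells and 13 (4 to 22) in 2-month cells. The medians at P8 were 30 in superior and 32.5 in inferior cells. The rule itself favours more members per cell at P8. The number per P8 cell had a Spearman correlation of -0.05 with the cell's reads and 0.64 with its number of detected genes, over 48 cells that share both a collection and the normalization.

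The set holds 5 genes of rod photoreceptors, 4 of them among its 12 highest P8 values in CPM, a unit that is not per length of transcript. Nr2e3 (RefSeq GRCm38.p6, chr9:59942771-59960834) encodes an orphan nuclear receptor that represses cone genes in rods. It averaged 69.9 CPM at P2, 799 CPM at P8, 18.5 CPM at P21, 29.3 CPM at P60 and 11.4 CPM in the 2-month collection, an 11.3-fold excess at P8. It had 0, 703 and 2199.6 CPM in the 24 superior P8 cells (lowest, median and highest), against 0.318, 518 and 5309 CPM in the 24 inferior P8 cells. Thus 40 of 48 P8 cells carried it, and the zones overlapped, with the highest cell in the inferior zone. At P2, before the peak, it was already over 1 CPM in 23.2% of cells, and at P21 in 6.25%.

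The other rod members encode subunits of the light response itself. Pde6b (chr5:108388373-108431743), the beta subunit of the rod phosphodiesterase, averaged 11.9 CPM at P2, 453 CPM at P8, 63.4 CPM at P21, 77.2 CPM at P60 and 99.7 CPM in the 2-month collection. It had 0, 414 and 2434 CPM in the 24 superior P8 cells (lowest, median and highest), against 0, 209.8 and 1995 CPM in the 24 inferior P8 cells. It was seen in 40 of 48 P8 cells, against 5.36% of P2 and 12.5% of P21 cells, and the cell ranges of the zones overlapped. Gnb1 (chr4:155491300-155559269), the beta subunit of rod transducin and of other G proteins, averaged 173 CPM at P2, 551 CPM at P8, 65.6 CPM at P21, 110.3 CPM at P60 and 46.3 CPM in the 2-month collection. It was over 1 CPM in 46 P8 cells, with 0, 446 and 1922 CPM in the 24 superior P8 cells (lowest, median and highest), against 0, 456 and 1435 CPM in the 24 inferior P8 cells. Of the 5 rod genes it was the one already present in most P2 cells, 75% of them.

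The last of the rod genes form the cyclic nucleotide gated channel. Cngb1 (chr8:95239043-95306585), its beta subunit, averaged 5.34 CPM at P2, 235 CPM at P8, 26.8 CPM at P21, 27.3 CPM at P60 and 18.6 CPM in the 2-month collection. Its fold was 8.33, and 31 P8 cells had it, with 0, 169.6 and 838 CPM in the 24 superior P8 cells (lowest, median and highest), against 0, 21.4 and 932 CPM in the 24 inferior P8 cells. Cnga1 (chr5:72603696-72642752), its alpha subunit, averaged 0.0155 CPM at P2, 37.2 CPM at P8, 7.63 CPM at P21, 0.877 CPM at P60 and 10.21 CPM in the 2-month collection. It was seen in 19 P8 cells and the median superior P8 cell had 0 CPM. Nr2e3, Cngb1, Gnb1 and Pde6b were the 4 genes of the set that the rule kept under all 15 alternative settings tried, and Cnga1 was kept under 11.

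**Figure D2:**
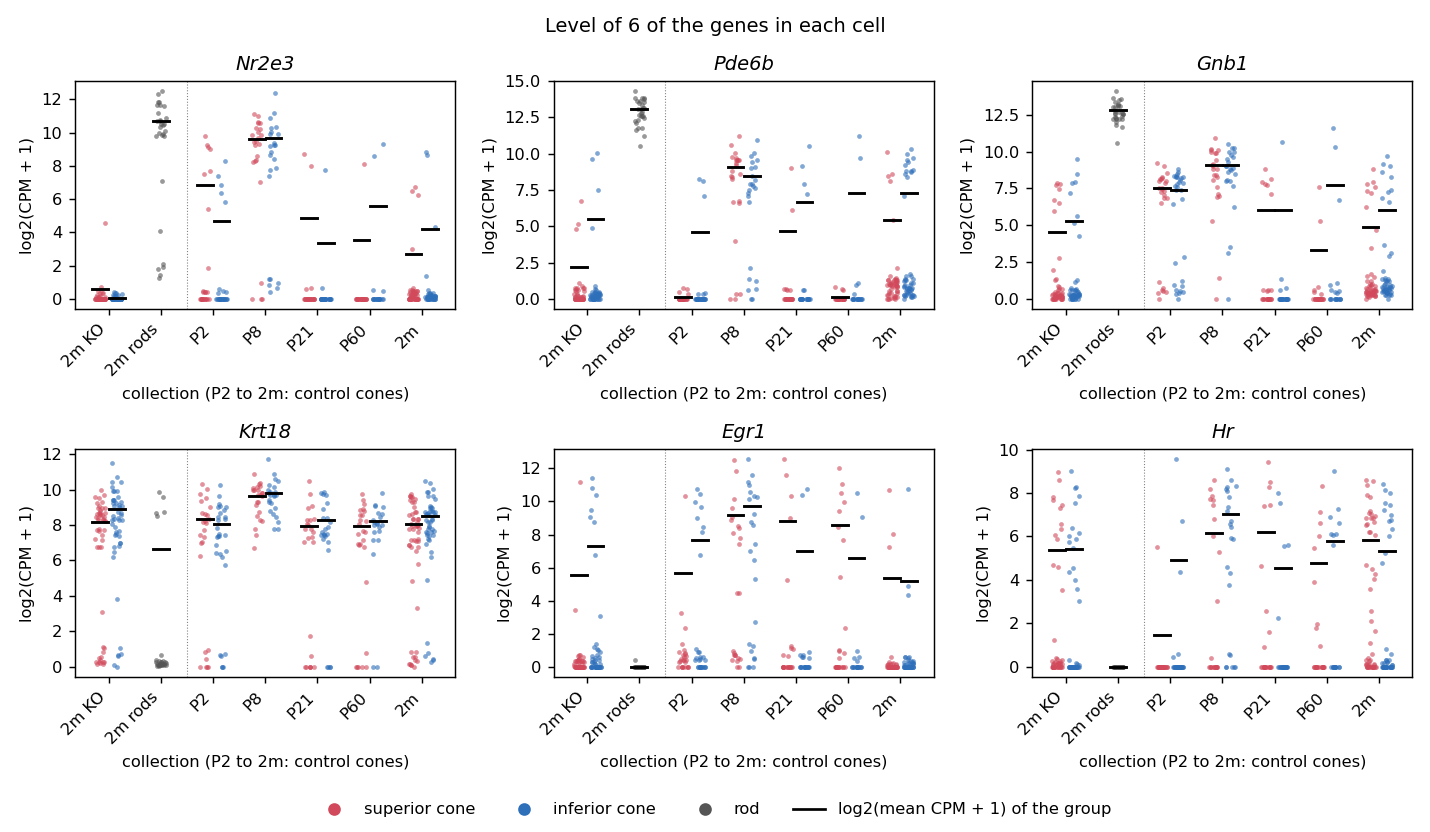
Values of Nr2e3, Pde6b, Gnb1, Krt18, Egr1 and Hr in single cells on a log2(CPM + 1) axis, for 2-month knockout cones, 2-month rods and control cones by age. Each point is a cell (superior red, inferior blue, rods grey) and each bar is the log2(mean CPM + 1) of its group; Nr2e3 is at or near 0 in most control cells of P21 and later but over 1 CPM in 40 of 48 P8 cells, whereas Krt18 is present at every age.

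Adult rods set the scale for these levels. The P8 cone mean was 47.9% of the mean of 2-month rods for Nr2e3, 10.8% for Cngb1, 7.66% for Gnb1, 6.35% for Cnga1 and 5.33% for Pde6b. The rods averaged 1667 CPM of Nr2e3, 7191 CPM of Gnb1 and 8499 CPM of Pde6b. Rods of P8 were not analysed here, so these shares set young cones beside adult rods. Among other rod genes the P8 share was 0.951% (rod transducin alpha, Gnat1) and 3.18% (the rod exchanger Slc24a1) at the low end. It was 45.4% for rod transducin gamma, Gngt1, 54.5% for the axonemal protein Rp1 and 308% for the rod corepressor Samd7, which was thus higher in P8 cones than in adult rods.

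The list of rod genes had 17 of 19 measured, of which 5 are members. At P8 11 of the 17 (64.7%) had their highest level, the 5 members included by choice, against 17.1% of all genes. With DESeq2 size factors the count was 9 of 17 (52.9%, all genes 14.7%), and in inferior cones alone 7 (41.2%, all genes 18.4%). Gnat1 was highest at P60 and averaged 0.00841 CPM at P2, 435 CPM at P8, 280.4 CPM at P21, 696 CPM at P60 and 272 CPM in the 2-month collection. The summed level of the list was 2459 CPM at P2, 18519 CPM at P8, 19709 CPM at P21, 21941 CPM at P60 and 22573 CPM in the 2-month collection, beside 172409 CPM in rods. In single cells that sum ran from 190.1 to 6262 CPM at P2, 7816 to 42066 CPM at P8, 10033 to 51172 CPM at P21, 11169 to 78366 CPM at P60 and 9842 to 40216 CPM at 2 months. Sag, the rod arrestin, had 392 CPM at P2, 4963 CPM at P8, 10418 CPM at P21, 10701 CPM at P60 and 16297 CPM in the 2-month collection. Without Sag the list summed to 2067 CPM at P2, 13556 CPM at P8, 9291 CPM at P21, 11239.5 CPM at P60 and 6275 CPM in the 2-month collection. In deposited CPM this sum was highest at P8, whereas the full list was highest in the 2-month collection. Leaving out Sag was chosen after its values were seen, and the 5 members in the sum are high at P8 by choice. The P8 peak of this sum is therefore a description, and it was not checked under other scalings. Whether RNA from rods reached the picked cones was not tested.

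**Figure D3:**
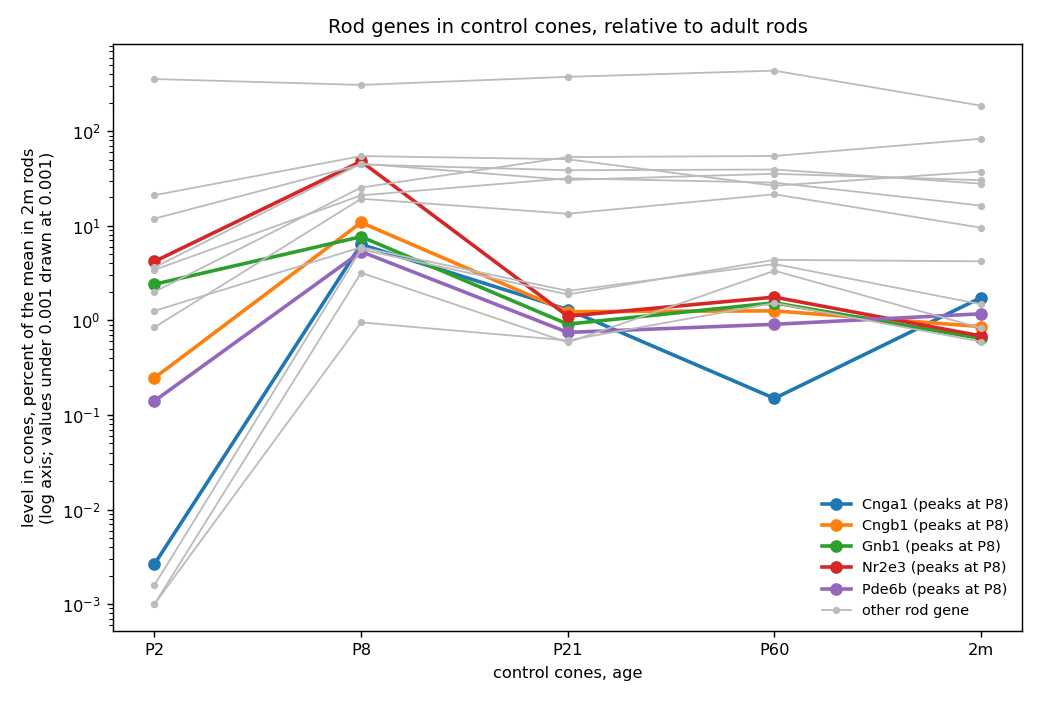
Rod genes (the 5 members and most of the others measured) in control cones (x axis, age), each as a percent of its mean in 2-month rods on a log axis, with values under 0.001% drawn at 0.001%; coloured lines are the 5 members and grey lines the other rod genes. Each of the 5 members peaks at P8, from 5.33% for Pde6b to 47.9% for Nr2e3, while several grey lines stay level or are higher at later ages and 1, Samd7, is at 308% at P8.

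The levels of the rod members were correlated over single P8 cones. At least 3 of the 5 were over 1 CPM in 38 of 48 P8 cells, all 5 in 17 and at least 4 in 31, and no P8 cell lacked them all. At the other ages at least 3 were found in 3 of 56 cells at P2, 2 of 48 at P21, 3 of 47 at P60 and 15 of 103 at 2 months. These counts follow largely from the share of cells with each gene. The rule used that share at P8 and the level at every age, so the counts alone do not show that the genes go together. Their summed level per P8 cell had a lowest value of 2.26, a median of 1707 and a highest value of 7803 CPM. Over the 48 P8 cells the 10 pairs of rod members had a median Spearman correlation of 0.59 (0.23 to 0.73), and all 1711 pairs of members a median of 0.008 (-0.47 to 0.73). Nr2e3 with Pde6b was the closest of all pairs. The summed level had a Spearman correlation of -0.19 with cone arrestin Arr3 and 0.24 with the M opsin Opn1mw. Rod genes outside the set were also correlated with the 5 members, to differing degrees. The Spearman correlation with single members was 0.44 to 0.63 for Reep6 and 0.30 to 0.54 for Gnat1. It was 0.10 to 0.31 for Sag and 0.07 to 0.24 for Gngt1. Correlation over P8 cells was thus not particular to the members. These cells share a collection, and the correlations are a description. Outside the rod genes, the secreted serine protease Htra1 had a Spearman correlation of 0.55 with Gnb1 and 0.53 with Nr2e3.

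Markers of other retinal cells rested on a few genes at P8. The 10 measured Müller glia markers summed to 989 CPM at P8, of which Car2 gave 534 and Clu 356, with Dkk3 at 0, Rlbp1 at 1.68 and Glul at 18.5 CPM; 3 of them were over 1 CPM in at least 25% of P8 cells. The sum of the Müller list was 1520 CPM at P2, 1401 CPM at P21, 1538 CPM at P60 and 1963 CPM at 2 months. The 5 bipolar markers summed to 626 CPM, mainly Otx2 at 371 CPM, which photoreceptors also express, and Cabp5 at 219 CPM. The bipolar sum was 1582 CPM at P2, 398 CPM at P21, 298 CPM at P60 and 311 CPM at 2 months. The 4 amacrine markers summed to 37.9 CPM with Tfap2b at 0. The 3 horizontal markers summed to 232 CPM at P2, 220.3 CPM at P8, 20.4 CPM at P21, 14.1 CPM at P60 and 30.4 CPM at 2 months. At P8 most of this was Ndrg1, with 163 CPM and 130.2 CPM in 2-month rods, while Onecut1 had 5.71 CPM at P8. The part of such cells in the members' values was not tested. At P8 the 4 ganglion markers summed to 44.2 CPM, the 5 progenitor markers to 109 CPM and the 1 microglia marker to 10.6 CPM, and the 1 endothelial marker was at 0. In these lists 1 marker, of the horizontal list, had its highest level at P8. Pigment epithelium markers were not analysed here.

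Transcription, chromatin and nucleic acid factors made up 6 of the 59. Egr1, the immediate early zinc finger factor that neurons switch on within minutes of stimulation, averaged 128 CPM at P2, 713 CPM at P8, 291 CPM at P21, 239 CPM at P60 and 37.7 CPM in the 2-month collection. Cells differed widely, with 0, 20.9 and 5719 CPM in the 24 superior P8 cells (lowest, median and highest), against 0, 151 and 5996 CPM in the 24 inferior P8 cells. It was over 1 CPM in 31 of 48 P8 cells, and 2-month rods had 0.0104 CPM. The list of stress and immediate early genes had 13 of 17 measured and 6 (46.2%) highest at P8, Egr1 included by choice, against 17.1% of all genes. Jun, Junb, Egr2, Ier2, Hspa1a, Hspa1b and Hsph1 were not highest at P8. Among those that were, the orphan receptor Nr4a1 averaged 35.3 CPM at P2, 218 CPM at P8, 136 CPM at P21, 87.7 CPM at P60 and 27.5 CPM in the 2-month collection, and the antiproliferative gene Btg2 698 CPM at P2, 1304 CPM at P8, 442 CPM at P21, 657 CPM at P60 and 367 CPM in the 2-month collection. The part of cell dissociation in these values was not tested.

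Hr (chr14:70554056-70573548) encodes a corepressor of nuclear receptors and is a classic thyroid hormone target in brain. It averaged 15.4 CPM at P2, 101 CPM at P8, 47.4 CPM at P21, 40.4 CPM at P60 and 47.9 CPM in the 2-month collection. It was over 1 CPM in 27 P8 cells, 10 superior and 17 inferior, with 0, 0 and 385 CPM in the 24 superior P8 cells (lowest, median and highest), against 0, 73.2 and 545 CPM in the 24 inferior P8 cells. The zones overlapped, and in superior cones alone its P8 level did not exceed the highest other age (log2 ratio -0.019). Of the thyroid hormone list 10 of 15 genes were measured and 3 (30%) were highest at P8, Hr by choice, against 17.1% of all genes. The receptor gene Thrb was not among these and averaged 879 CPM at P2, 266 CPM at P8, 309.6 CPM at P21, 275 CPM at P60 and 191 CPM in the 2-month collection.

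Vax2 (chr6:83711239-83738313), a homeodomain factor of the ventral retina, averaged 17.8 CPM at P2, 87.1 CPM at P8, 17.6 CPM at P21, 21.5 CPM at P60 and 5.15 CPM in the 2-month collection. At P8 it was over 1 CPM in 0 of 24 superior cells, which by counting error alone allows a share of up to 12.5% in this 1 sample, and in 16 of 24 inferior cells. The remaining 3 of this group were Brwd3, with bromodomains and WD repeats (21.7 CPM at P8 against 5.13 CPM at P2), the zinc knuckle protein Zcchc9 (43.8 CPM at P8 against 18.5 CPM in the 2-month collection) and Brat1, a partner of the DNA damage response (103 CPM at P8 against 46.02 CPM at P60).

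Signalling proteins numbered 8, with folds of 2.06 to 6.98. Sh2b3, an adaptor that dampens cytokine and kinase signalling, had the largest, with 10.1 CPM at P2, 76.8 CPM at P8, 6.94 CPM at P21, 7.78 CPM at P60 and 9.70 CPM in the 2-month collection. Diras2 (chr13:52504375-52531354), a small GTPase related to Ras, had the highest P8 value of them in CPM and averaged 21.7 CPM at P2, 276 CPM at P8, 126 CPM at P21, 58.8 CPM at P60 and 60.4 CPM in the 2-month collection. It had 0, 74.9 and 628 CPM in the 24 superior P8 cells (lowest, median and highest), against 0, 188 and 1324 CPM in the 24 inferior P8 cells. Diras2 therefore stayed above its P2 level at P21, and in 2-month rods it was at 0 CPM. Trib1, a pseudokinase that steers protein degradation, had 93.0 CPM at P8 against 23.8 CPM at P2 and was at 3.67 CPM by P60. Ric8b, a chaperone of G alpha subunits, had 76.9 CPM at P8 against 20.1 CPM at P60. Gng3, a G protein gamma subunit, had 64.0 CPM at P8 against 19.9 CPM at P2, and the orphan receptor Gpr19 44.5 CPM at P8 against 21.1 CPM at P2. The lipid kinase Pip4k2c had 63.9 CPM at P8 against 30.0 CPM at P21.

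Proteins of the cytoskeleton, adhesion and matrix numbered 6. Krt18 (chr15:102028216-102032026), a type I keratin of simple epithelia, had the highest P8 value of the set in CPM and averaged 293 CPM at P2, 850.5 CPM at P8, 280.3 CPM at P21, 272 CPM at P60 and 318 CPM in the 2-month collection. Every P8 cell carried it, with 104, 824 and 1903 CPM in the 24 superior P8 cells (lowest, median and highest), against 215, 816 and 3356 CPM in the 24 inferior P8 cells. Even so its fold was 2.67, and at other ages 76.8% to 84.5% of cells had it, so it was broadly present and raised at P8. Col17a1 (chr19:47646341-47692042), the transmembrane collagen of hemidesmosomes, had the largest fold of the set, 13.1, with 5.89 CPM at P2, 98.0 CPM at P8, 3.02 CPM at P21, 2.12 CPM at P60 and 6.53 CPM in the 2-month collection. It came from 18 of 48 P8 cells, with 0, 0.293 and 839 CPM in the 24 superior P8 cells (lowest, median and highest), against 0, 0 and 878 CPM in the 24 inferior P8 cells. Htra1 had 63.7 CPM at P8 against 14.5 CPM in the 2-month collection, and the axonemal microtubule protein Saxo2 25.8 CPM at P8 against 5.38 CPM at P2. Trophinin (Tro), an adhesion protein, had 70.1 CPM at P8 against 28.8 CPM at P2, and the catenin relative Ctnnal1 54.3 CPM at P8 against 25.8 CPM at P2.

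Mitochondrial respiration gave 4 members with narrow folds of 2.05 to 2.37. Ndufb8, Ndufb10 and Ndufa1 are accessory subunits of complex I, and Cox10 makes the heme of cytochrome oxidase. Ndufb8 averaged 157 CPM at P2, 331 CPM at P8, 126 CPM at P21, 159.6 CPM at P60 and 156 CPM in the 2-month collection, with 133, 340.2 and 939 CPM in the 24 superior P8 cells (lowest, median and highest), against 42.1, 272 and 635 CPM in the 24 inferior P8 cells. Ndufb10 had 204 CPM at P8 against 99.4 CPM at P60, Ndufa1 41.2 CPM at P8 against 18.8 CPM in the 2-month collection and Cox10 74.2 CPM at P8 against 30.7 CPM at P21. The 3 subunits were found in at least 97.9% of P8 cells, unlike most of the set, and Ndufb8 and Ndufa1 had a Spearman correlation of 0.55 over the P8 cells. Related lists were drawn up after the members' values were seen. Of 36 complex I genes 25 were highest at P8, the 3 members included by choice. Of 10 complex III genes 8 were, of 12 cytochrome oxidase genes 9 and of 18 ATP synthase genes 12, beside 17.1% of all genes. With DESeq2 size factors these counts were 20, 7, 7 and 8, beside 14.7% of all genes. In inferior cones alone 17 of the 36 complex I genes were highest at P8, and in superior cones alone 30, beside 18.4% of all genes in either zone.

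Lipid enzymes numbered 3. Elovl5, an elongase of polyunsaturated fatty acids, averaged 47.9 CPM at P2, 178 CPM at P8, 54.3 CPM at P21, 49.7 CPM at P60 and 64.2 CPM in the 2-month collection. Lpin1, a phosphatidic acid phosphatase, had 169 CPM at P8 against 73.7 CPM at P2, and the phospholipase Pla2g12a 53.03 CPM at P8 against 24.8 CPM at P2. All 3 were low in adult rods, with at most 9.63 CPM. Another 6 are metabolic enzymes with folds of 2.31 to 3.56. Ggt7, of the gamma-glutamyltransferase family, had 154 CPM at P8 against 51.9 CPM in the 2-month collection. Nt5e, the ecto-5'-nucleotidase that makes adenosine outside the cell, had 81.9 CPM at P8 against 31.1 CPM at P2 and 0.600 CPM in the 2-month collection. Sult4a1, a brain sulfotransferase relative, had 57.1 CPM at P8 against 15.3 CPM at P21, and the lysosomal sulfatase Ids 55.3 CPM at P8 against 17.9 CPM in the 2-month collection. Gamt, which makes creatine, had 52.1 CPM at P8 against 22.02 CPM at P2, and the aldo-keto reductase Akr1b8 25.96 CPM at P8 against 7.06 CPM in the 2-month collection. The 3 transporters lay between 40.4 and 47.4 CPM at P8. Of these Slc29a1 carries nucleosides, Slc7a8 carries neutral amino acids, and Mfsd4a belongs to the major facilitator family.

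Protein turnover and membrane traffic gave 5 members of 22.7 to 90.3 CPM at P8, each in 29.2% to 41.7% of P8 cells. The endoplasmic reticulum oxidoreductase Foxred2 had 90.3 CPM at P8 against 39.7 CPM at P60, and Dcun1d3, a factor of neddylation, had 79.6 CPM at P8 against 30.0 CPM at P2. Tmub1 carries a ubiquitin-like domain, Pigt belongs to the transamidase that attaches GPI anchors, and Chmp4b is a core subunit of ESCRT-III. The list of endoplasmic reticulum stress genes had none of the set among 18 measured, with 11 (61.1%) highest at P8, against 17.1% of all genes. With DESeq2 size factors it was 7 (38.9%, all genes 14.7%).

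The other coding members were Dbndd2, Medag, Ccdc28b, Riiad1, Susd3, Sel1l3, Mb21d2, Avpi1 and D430019H16Rik, at 37.4 to 223.6 CPM and folds of 2.02 to 5.08. Dbndd2 averaged 76.6 CPM at P2, 224 CPM at P8, 92.0 CPM at P21, 92.7 CPM at P60 and 46.2 CPM in the 2-month collection in a total of 44 P8 cells. D430019H16Rik had the largest fold of these, 5.08. Medag had 152 CPM at P8 against 44.3 CPM at P2 and 0 CPM at P60. The long non-coding RNAs Ttc39aos1 and Gm12059 had 85.6 CPM at P8 against 19.2 CPM at P21 and 27.2 CPM at P8 against 7.77 CPM at P21. Gm10725 and C730026J16 had no entry in the RefSeq table and were at 34.7 and 32.2 CPM at P8; Gm10725 had a Spearman correlation of 0.62 with Dbndd2 over the P8 cells. In all 24 members overlap another annotated gene, and for 8 (Dbndd2, Vax2, Dcun1d3, Gng3, Riiad1, Mfsd4a, Gpr19 and Ndufa1) that gene is in the expression table too. Whether counting used strand was not stated, and reads of such pairs may be mixed.

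The rule used the mean of both zones and not their difference. A gene could still meet it through 1 zone, as Vax2 did through inferior cones, and for such a gene the ratio between P8 zones is a description. Past 2-fold, with at least 10 CPM in the higher zone, 4 members were higher in superior P8 cones (12.4% of all genes) and 11 were lower (11.7% of all genes). The median log2 ratio of superior over inferior was -0.16 for the members and 0.04 for all genes, and 22 of 59 members were over 0. Each zone had 24 cells of 1 sample, and there is no test of a single age. Without the highest cell of each zone 9 members were higher in superior P8 cones. Without the single highest P8 cell of each gene, a setting chosen after seeing the data, 4 were higher and 5 lower. Shares of all genes under these 2 settings are not given here, so the counts show only that single cells weigh on the calls.

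Vax2 differed most, with 0.0581 CPM in superior and 174 CPM in inferior P8 cones (log2 ratio -7.37). Ttc39aos1 had 22.9 CPM in superior and 148 CPM in inferior P8 cones (log2 ratio -2.65), and Mb21d2 21.1 CPM in superior and 90.7 CPM in inferior P8 cones (log2 ratio -2.05). These 3 were past 4-fold, all lower in superior cones. Trib1 had 52.6 CPM in superior and 133 CPM in inferior P8 cones (log2 ratio -1.33) and Ggt7 97.7 CPM in superior and 210.5 CPM in inferior P8 cones (log2 ratio -1.10). Pigt had 12.9 CPM in superior and 43.02 CPM in inferior P8 cones (log2 ratio -1.67), but 1 inferior cell at 681 CPM held 50.8% of its P8 sum. On the superior side D430019H16Rik had 103 CPM in superior and 27.6 CPM in inferior P8 cones (log2 ratio 1.86) and Saxo2 40.1 CPM in superior and 11.5 CPM in inferior P8 cones (log2 ratio 1.72). Akr1b8 had 38.1 CPM in superior and 13.8 CPM in inferior P8 cones (log2 ratio 1.40) and Tro 94.1 CPM in superior and 46.1 CPM in inferior P8 cones (log2 ratio 1.01). Without the single highest P8 cell of each gene, an alternative chosen after seeing the data, 3 of the 11 members lower in superior cones were still past 2-fold (Vax2, Ttc39aos1 and Trib1), and 3 of the 4 higher ones (D430019H16Rik, Akr1b8 and Saxo2). For Mb21d2, where 1 inferior cell held 44.2% of the P8 sum, the means were then 21.1 CPM in superior and 43.1 CPM in inferior cones. The log2 ratio of Pigt was then -0.23, with 12.9 CPM in superior and 15.3 CPM in inferior cones. Of the 12 members with the highest P8 values, Diras2 was the 1 past 2-fold, with 178 CPM in superior and 374 CPM in inferior P8 cones (log2 ratio -1.07). Without its highest cell that ratio was -0.90, short of 2-fold.

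**Figure D4:**
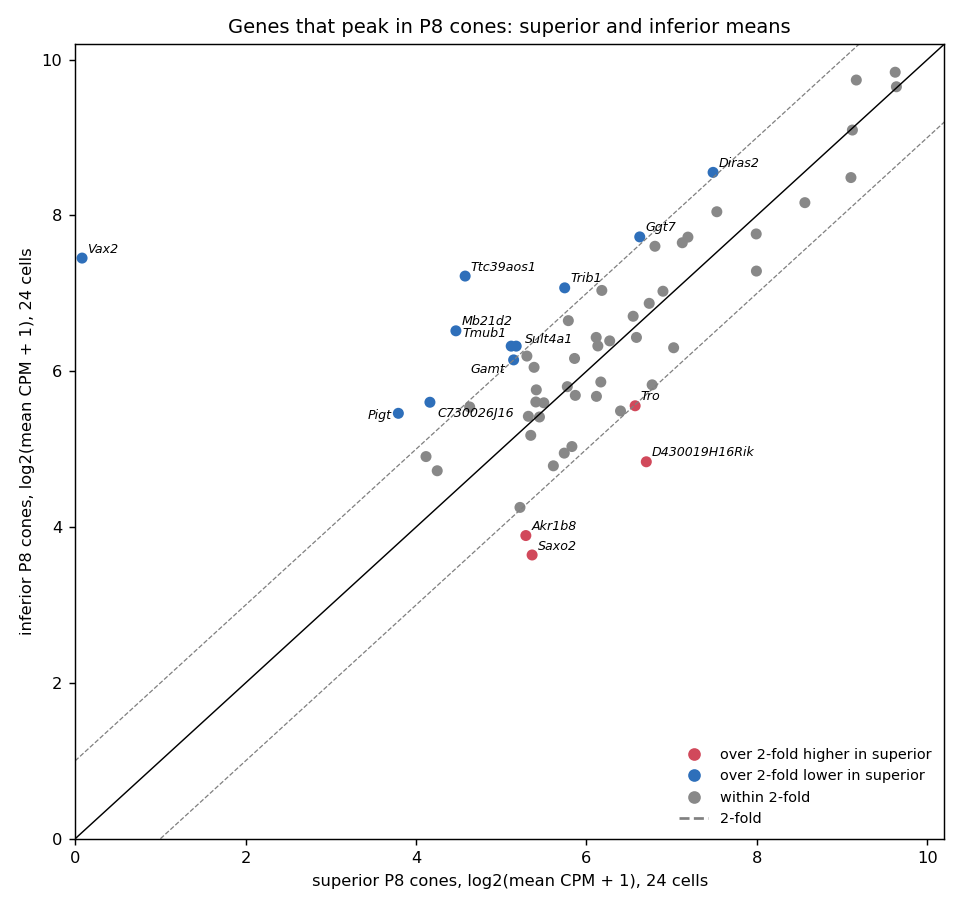
Mean level of the 59 genes in superior (x axis) and inferior (y axis) P8 cones, both as log2(mean CPM + 1) over 24 cells; dashed lines mark a 2-fold difference. The 11 blue points are lower in superior cones, with Vax2 farthest off, and the 4 red points are higher.

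Over the 5 control collections the zone difference was tested with limma, on group means with the collection as a block. No member passed an adjusted p of 0.05, nor did any of 10136 genes tested (0%); 710 genes and 8 members had an unadjusted p below 0.05. Vax2 was nearest, with a mean log2 difference of -5.33 ± 0.67 (SE, limma adjusted p = 0.275). Vax2 met the rule through inferior P8 cones, which this fit includes, so its p-value and any call of it are no independent test. It was lower in superior cones in 5 of 5 collections, by log2 ratios of -5.12 at P2, -7.37 at P8, -5.18 at P21, -5.46 at P60 and -3.50 at 2 months. Diras2 followed with -1.56 ± 0.33 (SE, limma adjusted p = 0.538), also lower in 5 of 5. Without the P8 collection none of the 53 members then tested passed either. DESeq2 on the recovered reads summed by group called Vax2, Diras2 and Trib1, all lower in superior cones, and 262 genes (2.52%), while edgeR called 0 genes and had 417 at an unadjusted p below 0.05.

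Whether the zone difference at P8 went beyond that of the other ages was tested in the same limma fit. No member passed, and 0 of 10136 genes did (470 genes, 4.64%, and 1 member, Ids, had an unadjusted p below 0.05). DESeq2 called 455 genes (4.38%), none of them a member, and edgeR called 0 genes, with 397 at an unadjusted p below 0.05. Pde6b had the largest departure among the named rod genes. Its log2 ratio of superior over inferior was -4.53 at P2, 0.62 at P8, -2.01 at P21, -7.18 at P60 and -1.89 at 2 months, a P8 excess of 4.52 ± 1.93 (SE, limma adjusted p = 0.999). At every age but P8 its superior mean was the lower. Few cells carry the P2 and P60 ratios. Pde6b was over 1 CPM in 5.36% of P2 and 6.38% of P60 cells, and its superior means there were 0.0737 and 0.0724 CPM.

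Knockout cones were compared with 2-month control cones, whose values the rule had used. Past 2-fold in both zones, 4 members were higher in knockout cones (3.38% of all genes) and 2 were lower (2.76% of all genes). Mfsd4a had 13.4 CPM in knockout and 4.32 CPM in 2-month control superior cones (log2 ratio 1.44), and 10.8 CPM in knockout and 2.58 CPM in 2-month control inferior cones (log2 ratio 1.72). Sel1l3 had 20.6 CPM in knockout and 1.84 CPM in 2-month control superior cones (log2 ratio 2.93), and 16.2 CPM in knockout and 7.55 CPM in 2-month control inferior cones (log2 ratio 1.01). Both stayed below their P8 level in either knockout zone. Brwd3 had 30.3 CPM in knockout and 0.603 CPM in 2-month control superior cones (log2 ratio 4.28), and 28.1 CPM in knockout and 9.02 CPM in 2-month control inferior cones (log2 ratio 1.54), and was the 1 member whose knockout level exceeded its P8 level. Brwd3 was however over 1 CPM in 13.3% of knockout cells and 25% of P8 cells, and 1 cell held 37.8% of its P8 sum. The lower members were a rod gene and a GTPase. Pde6b had 3.56 CPM in knockout and 41.8 CPM in 2-month control superior cones (log2 ratio -3.23), and 43.5 CPM in knockout and 158 CPM in 2-month control inferior cones (log2 ratio -1.83). Diras2 had 3.36 CPM in knockout and 23.1 CPM in 2-month control superior cones (log2 ratio -2.47), and 29.9 CPM in knockout and 97.7 CPM in 2-month control inferior cones (log2 ratio -1.67).

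The ratios of the other rod members differed in sign in knockout cones. Nr2e3 had 0.50 CPM in knockout and 5.38 CPM in 2-month control superior cones (log2 ratio -2.09), and 0.0392 CPM in knockout and 17.4 CPM in 2-month control inferior cones (log2 ratio -4.15). Both of its superior values were under the 10 CPM minimum. Cngb1 had 9.69 CPM in knockout and 7.44 CPM in 2-month control superior cones (log2 ratio 0.34), and 87.0 CPM in knockout and 29.8 CPM in 2-month control inferior cones (log2 ratio 1.51), and Gnb1 22.6 CPM in knockout and 29.1 CPM in 2-month control superior cones (log2 ratio -0.35), and 37.7 CPM in knockout and 63.5 CPM in 2-month control inferior cones (log2 ratio -0.73). Cnga1 had 0.0239 CPM in inferior knockout cones, against 18.8 CPM in 2-month control inferior cones. Over the set, the median log2 ratio of knockout over control was 0.08 for members and 0.00 for all genes in superior cones, and 0.30 for members and 0.11 for all genes in inferior cones. The knockout level exceeded that of 2-month control cones in 37 of 59 members, but came within 2-fold of P8 in 11. Both counts follow in part from the rule, which took genes low in 2-month control cones and high at P8. Shares over all genes were not counted for them, so they are no result about the members. There is 1 sample on each side and no knockout cone at P8, so these ratios have no replicate check. From means of log2(CPM + 1) over cells no member was past 2-fold in both zones in either direction.

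Adult rods had 13 members over 2-fold higher than 2-month control cones of both zones (7.39% of all genes), and 11 lower (28.8% of all genes). The rule had used the 2-month control values and took genes low there, which raises the first count and cuts the second. The higher ones were the 5 rod genes with Ggt7, Vax2, Nt5e, Ric8b, Htra1, Ctnnal1, Gpr19 and Susd3. Susd3 had 483 CPM in rods and 37.4 CPM in P8 cones, Htra1 207 CPM in rods and 63.7 CPM in P8 cones, and Ric8b 246 CPM in rods and 76.9 CPM in P8 cones. The lower ones were Krt18, Egr1, Diras2, Elovl5, Lpin1, Hr, Dcun1d3, Riiad1, Tmub1, Slc7a8 and Zcchc9. Riiad1, seen in 97.9% of P8 cones, had 59.3 CPM there and 0.00404 CPM in rods. In all 28 members were under 1 CPM in rods, and 10 were higher in rods than in P8 cones. The set thus holds genes that are high in adult rods as well as genes nearly absent from them. Shares over all genes were not counted for these 2 numbers, so they do not set the members apart. Rod cells also had fewer detected genes, a median of 3893 against 4868.5 in superior and 4646.5 in inferior P8 cells. From means of log2(CPM + 1) over cells 6 members were higher and 2 lower in rods.

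Regions bound by the tagged receptor at E18 lay within 50 kb of 42 of the 57 members with a position in RefSeq (73.7%), against 39.1% of 10140 placed genes. Among genes of at least 20 CPM at P8 the share was 40.9%. Under the same rule it was 37.9% for genes peaking at P2, 57.1% at P21, 39.3% at P60 and 27% in the 2-month collection. The median gene length was 24513 bases for members and 23609 bases for all placed genes, and both had a median of 5 neighbouring genes in the window. At other distances the members' share was also higher than that of all genes. Inside the gene interval it was 33.3% of members and 14.7% of all genes, within 10 kb 52.6% and 21.2%, and within 100 kb 78.9% and 52.7%. Genes peaking at P21 had 42.9% inside the gene interval, above the members, 48.6% within 10 kb and 62.9% within 100 kb. Their median length was 42616 bases. The sets peaking at P2, P60 and 2 months were below the members at each distance. With only regions of a deposited p-value of at most 0.01, 31 members (54.4%) had one, against 31.02% of all genes. Binding was measured in whole E18 retina, before the ages at which these genes were measured.

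Pde6b had the region with the lowest deposited p-value near any member, chr5:108422195-108422494 (p = 2.88e-32), within the gene interval. It also had chr5:108431072-108431371 (p = 9.02e-26), near the end of the gene interval. The first overlaps a region listed as induced in P30 cones, chr5:108421658-108422641. Dcun1d3 had chr7:119884103-119884402 (p = 3.66e-18) within the gene interval. Near Gnb1 lay chr4:155469519-155469818 (p = 8.28e-17), 21482 bases away, and chr4:155473378-155473677 (p = 6.92e-12), which overlaps an induced region. Hr had 4 bound regions, as many as D430019H16Rik and more than the other members, of which chr14:70551820-70552119 (p = 5.05e-17) lay 1937 bases from the gene. Foxred2 had chr15:77931744-77932043 (p = 1.38e-15) at 8479 bases, and Ric8b chr10:84960497-84960796 (p = 6.02e-15) within the gene interval. Nr2e3 had chr9:59952764-59953063 (p = 8.13e-05) within the gene interval, Cnga1 chr5:72643645-72643944 (p = 0.00705) at 893 bases and Cngb1 chr8:95310620-95310919 (p = 0.00173) at 4035 bases. All 5 rod members thus had a bound region within 50 kb. The gene intervals do not tell exons from introns.

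**Figure D5:**
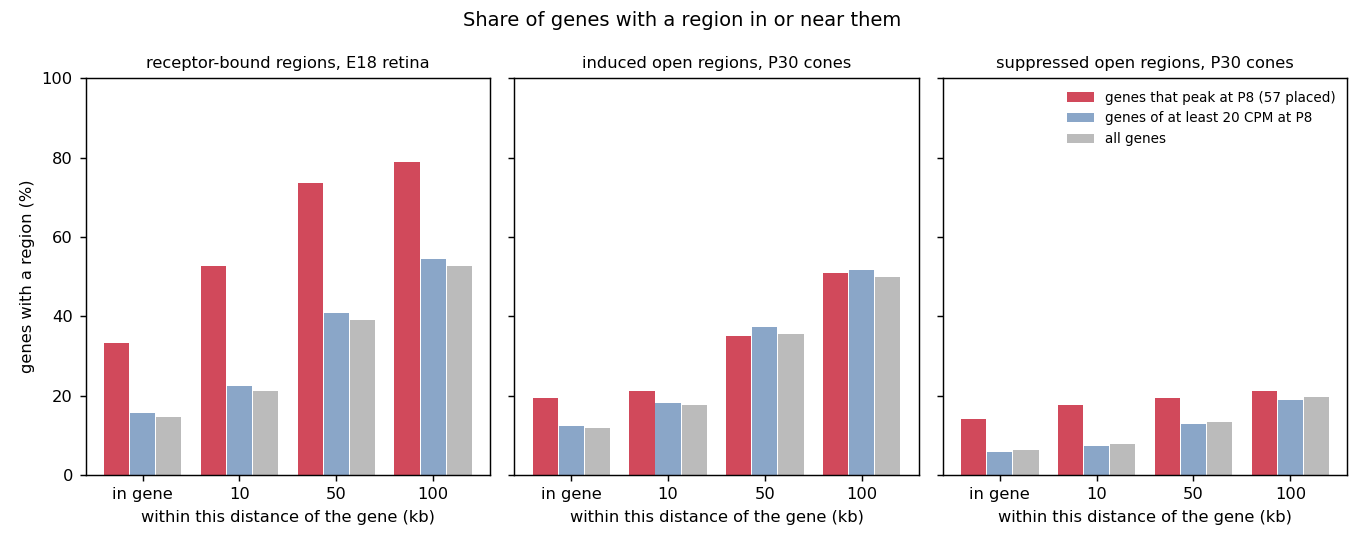
Share of genes (percent) with a region inside the gene or within 10, 50 or 100 kb, for receptor-bound, induced and suppressed regions; red bars are the 57 placed members, blue bars genes of at least 20 CPM at P8 and grey bars all placed genes. Within 50 kb the bars for bound regions are at 73.7%, 40.9% and 39.1%, while for induced regions the members are at 35.1% and all genes at 35.5%.

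Open regions of purified P30 cones were set beside the members in the same way. Regions listed as induced lay within 50 kb of 20 members (35.1%, against 35.5% of all genes), and regions listed as suppressed within 50 kb of 11 (19.3%, against 13.2%). The 11 include Cnga1, Cngb1, Gnb1 and Pde6b. Suppressed regions lay inside 14% of members and 6.23% of all genes, and within 10 kb of 17.5% of members and 7.68% of all genes, whereas within 100 kb the shares were 21.1% of members and 19.6% of all genes. Induced regions lay inside 19.3% of members and 11.9% of all genes. Of the 58 bound regions near members 9 overlap an induced region (15.5%), against 1293 of all 4590 bound regions (28.2%), and 2 overlap a suppressed one, near Htra1 and Cnga1. These lists carry no sample values, and the direction is as the names of the lists give it.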

How the data were processed

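RNA was measured in 430 single-cell libraries, counted here as 429 cells. The values are CPM as deposited by the authors, relative to all reads of a library; the genes of the table hold 80.0% to 93.0% of each library. Per the labels, cDNA was made with SMART-Seq v4 from cells picked singly after papain. Per the submitters' processing notes, the tools include bcl2fastq 2, STAR 2.7.3a and MACS2 2.2.7.1 and the build is GRCm38/mm10; a counting tool and an annotation were not named there. The receptor-bound regions carry a p-value deposited by the authors; whether it is adjusted is not given. The region lists deposited by the authors hold positions only (the open regions) or positions with that p-value, and whether they were called per sample or pooled is not given.

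The members and all gene lists were chosen with earlier results of these data known. Levels are means of CPM over cells of a group, averaged over zones for the rule. All values over 0 (100%) were whole reads within 0.1 read, so reads were recovered and summed per group for edgeR 4.0.16 and DESeq2 1.42.0. Zone differences were tested with limma 3.58.1 (trend, R 4.3.3) on log2(mean CPM + 1) of the 10 control groups with collection as a block, over genes averaging at least 5 CPM, with Benjamini-Hochberg adjustment over all genes; the scripts were tested on simulated data. Comparisons without replicates used log2 of (mean CPM + 1) ratios, past 2-fold with at least 10 CPM; the pseudocount understates folds of low genes. Genes were placed by gene ID in RefSeq GRCm38.p6 (10149 of 10390 matched, 10140 placed), and 13 symbols that stand as numbers in the table were named by gene ID from RefSeq. Cells had 897893 to 32636811 recovered reads, so that a gene at 0 CPM in a shallow cell may still be present at a low level. Figures were drawn with Python 3.11.15 and matplotlib 3.10.9.

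The naming rule took the 12 members of highest P8 level, the 12 of largest fold, members in a list, the 4 nearest the fold limit on each side, members past 4-fold between P8 zones or 2-fold in knockout cones, the 4 seen in the most and in the fewest P8 cells, and up to 8 nearest a bound region. Some items that this rule or the marker lists take are not reported here. Most other members are named for completeness, after their values were seen, as were the groupings by role, the Spearman pairs and the respiration lists. Alternatives tried were other pseudocounts, averages, scalings, limits, zones, windows and tests, and leaving out each collection.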

Additional observations from a re-analysis of the deposited data

How the results depend on the processing

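The rule took 59 genes. It took 39 with a pseudocount of 10 CPM, 151 from means of log2(CPM + 1) (15 of the 59 among them), 108 in superior cones alone (28 among them), 132 in inferior cones alone (42 among them), 25 with a share of 50% of P8 cells and 21 with a fold of 3. Under the other 9 settings it took 42 to 77, with 51 under TMM rescaling (44 of the 59) and 45 under DESeq2 size factors (41 of the 59). In superior cones alone the log2 ratio of P8 over the highest other age was below 0 for Hr (-0.019), Mb21d2 (-0.72) and C730026J16 (-0.069); 17 members met the rule in each zone alone. For the zone difference over the 5 collections, where limma called 0 members and 0 genes, DESeq2 called 3 members and 262 genes, a fit with no collection block 1 member and 2 genes, and means of log2(CPM + 1) 10 genes. For the P8 zone difference DESeq2 called 455 genes. Leaving out each collection gave 0 to 0 calls for members and for genes in both zone tests; leaving out P8 could not be fitted for the P8 difference. Means of log2(CPM + 1) gave 0 members higher and 0 lower in knockout cones, 7 lower in superior P8 cones, and 6 higher and 2 lower in rods. DESeq2 size factors gave 2 higher in knockout cones. Without a minimum level 7 were lower in knockout cones and 29 in rods, and means without the highest cell of each group gave 9 higher in superior P8 cones and 7 lower in rods. Within the gene interval 19 members had a bound region; this and the other windows were chosen after seeing the data, as were the rescaled list counts. Without each gene's highest P8 cell, also chosen after seeing the data, 4 were higher and 5 lower in superior P8 cones. The causes of these differences were not tested. The zone tests pair the superior and inferior means of a collection. By replicate number, no paired analysis was possible because these numbers name cells within a group. Most members are seen in few cells, so that single cells weigh on their means, and 1 sample per group limits every comparison.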
